A study of Homo sapiens with 4 samples.

Results

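The genes described here are 38 genes of autophagy and the lysosome, chosen by function from their symbols: 17 of the autophagy machinery and its cargo receptors, 3 transcription factors, and 18 lysosomal membrane proteins, pump subunits, enzymes and other luminal proteins. Earlier results of these data were known when they were chosen. All 38 were found among the 20812 targets of the assay. They were measured in HCT116 cells, which derive from a human colon carcinoma, with amplicon sequencing that reads 1 short PCR product for each gene. Indole is a bacterial product of tryptophan, and IDO1 is an enzyme that begins the breakdown of tryptophan to kynurenine. The 4 groups were the hIDO1-overexpressing line with 1 mM indole for 24 h, the hIDO1-overexpressing line with the solvent DMF, wild type cells with 1 mM indole for 24 h, and wild type cells with DMF. The study's description states 2 replicates for each group, but 1 column of counts was analysed for each, so a group is 1 library here. The sources used here do not give how IDO1 was introduced or whether the overexpressing line is 1 clone.

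Autophagy encloses cytoplasmic cargo in a double membrane that fuses with the lysosome. The membrane is started by the ULK1 kinase and the BECN1 lipid kinase complexes, is decorated with ATG8 proteins by ubiquitin-like conjugation enzymes, and takes up cargo through receptors such as SQSTM1. The lysosome is acidified by the V-ATPase and holds proteases, glycosidases and lipases, many of whose genes are switched on by the transcription factors TFEB, TFE3 and MITF through E-box sequences, a set known as the CLEAR network.

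Those E-box sequences can be seen in the promoters of several of the genes. RefSeq windows from 250 bases before to 50 bases after a start site were matched for 32 of the 38 genes, as 42 windows of GRCh38.p14, and were searched for CACGTG, for its longer form TCACGTGA, and for the CLEAR palindrome GTCACGTGAC. Each motif reads the same on both strands, and a window with a longer form is also counted for the shorter. CACGTG was in 9 of the 42 windows (21.4%), those of ATG14, ATG3, LAMP1, MCOLN1, ATP6V0D1, CTSA, CTSD, GAA and NEU1. The same motif was in 7.26% of all 35116 windows, and in 9.76% of the 9512 windows of genes with at least 10 CPM, a count scaled to library size, in at least 1 library. TCACGTGA was in 6 member windows (14.3%), against 0.980% of all windows and 1.84% of those of the genes at 10 CPM or more. GTCACGTGAC was in 2 (4.76%), those of MCOLN1 and GAA, against 0.353% and 0.768%. Of the 6 windows with TCACGTGA, the 4 below belong to the genes with the highest log2 ratios of indole to DMF in wild type. These ratios were 0.49 for GAA, 0.25 for CTSA, 0.15 for LAMP1 and -0.16 for MCOLN1, which was thus lower with indole. The windows of ATP6V0D1, with -0.27, and ATG3, with -0.62, are not printed. GABARAPL1, with 0.90, CTSL1, with 0.62, and ATG16L1, with -0.60, had windows without CACGTG. The printed windows show how such motifs are laid out, with each E-box in capitals. Its neighbouring T and A are in capitals where they complete the longer form. The 4 windows lie on the plus strand, at chr17:80101331-80101630 for GAA, chr20:45891085-45891384 for CTSA, chr13:113296989-113297288 for LAMP1 and chr19:7522374-7522673 for MCOLN1.
GAA: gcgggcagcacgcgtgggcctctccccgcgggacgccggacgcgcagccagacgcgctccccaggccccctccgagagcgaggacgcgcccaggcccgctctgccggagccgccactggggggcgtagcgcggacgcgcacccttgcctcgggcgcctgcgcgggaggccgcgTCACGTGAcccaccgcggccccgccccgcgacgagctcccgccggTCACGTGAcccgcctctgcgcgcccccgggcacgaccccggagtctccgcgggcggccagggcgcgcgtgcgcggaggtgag
CTSA: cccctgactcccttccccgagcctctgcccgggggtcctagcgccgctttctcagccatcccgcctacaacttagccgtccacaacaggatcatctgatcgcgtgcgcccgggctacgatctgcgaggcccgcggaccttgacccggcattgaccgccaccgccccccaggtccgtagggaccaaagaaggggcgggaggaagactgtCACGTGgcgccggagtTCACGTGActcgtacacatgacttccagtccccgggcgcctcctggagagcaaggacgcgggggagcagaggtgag
LAMP1: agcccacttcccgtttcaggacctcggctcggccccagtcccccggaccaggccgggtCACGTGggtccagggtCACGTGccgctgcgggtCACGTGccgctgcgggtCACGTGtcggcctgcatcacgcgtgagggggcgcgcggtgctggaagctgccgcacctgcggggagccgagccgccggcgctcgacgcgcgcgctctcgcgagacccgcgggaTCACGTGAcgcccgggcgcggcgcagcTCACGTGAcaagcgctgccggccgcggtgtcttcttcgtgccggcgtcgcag
MCOLN1: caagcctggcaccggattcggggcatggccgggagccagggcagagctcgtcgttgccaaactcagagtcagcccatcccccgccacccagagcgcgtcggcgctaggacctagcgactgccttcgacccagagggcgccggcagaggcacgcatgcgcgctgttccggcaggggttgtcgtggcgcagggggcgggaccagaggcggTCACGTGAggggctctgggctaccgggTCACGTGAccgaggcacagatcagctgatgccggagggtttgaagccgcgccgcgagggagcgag
LAMP1 holds 6 E-boxes and the other 3 genes hold 2 each. These matches describe letters in the windows and were not tied to any change in level by a test.

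Levels are given as CPM scaled by TMM, a factor that aligns the bulk of genes between libraries. An amplicon count depends on its PCR product, so each gene is compared only between libraries and not with other genes. A measured gene had at least 10 CPM in at least 1 library compared, and 32 of the 38 genes met this in every comparison. Log2 ratios are of CPM plus 1, which understates the change of low genes. Folds with a range in parentheses are ratios of CPM with exact 95% Clopper-Pearson intervals, which cover counting error only, and a fold of 1.5 on the log2 scale was the size used for counting. There is no replicate check on any difference between a pair of groups, and no p-value was computed for one. Exons of ATG7, ATG12, BECN1, CTSA, NPC1, SQSTM1 and WIPI1 overlap a coding gene on the other strand, per the GENCODE annotation. Those of CTSD, GABARAP, HEXA and MCOLN1 overlap a coding gene on the same strand, among them PNPLA6 for MCOLN1. Whether the counting used strand is not given in the sources used here. In a bulk sample, fewer cells of a type and less RNA per cell cannot be told apart.

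The libraries held 18283862 to 22736172 reads. IDO1 had 2440 reads in the IDO1 line with indole and 3451 in the IDO1 line with DMF, against 2 in wild type with indole and 0 in wild type with DMF. The related gene IDO2 had 253 reads with indole and 317 reads with DMF in the IDO1 line, against 0 in both libraries of wild type. The wild type library with indole lay far from the others: on the first principal component, with 74.4% of the variance over 8397 genes, it was at 30.5, and the other 3 were between -13.6 and -5.26. Each statement on the indole response of wild type rests on that 1 library. Of 14 intestinal epithelial markers, 6 were at 10 CPM or more in each library, among them EPCAM, KRT8 and CDX2, whereas CDX1, CEACAM5, CEACAM6 and GPA33 had 0 reads in all 4. The leukocyte markers summed to 7.85 to 10.3 CPM, most of it CD68, with 118 to 186 reads a library, and PTPRC, CD3E and MS4A1 had 0 reads in all 4.

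Indole was compared with its solvent within each line. In the IDO1 line, the 32 measured genes lay between -0.24 and 0.40 on the log2 scale, with a median of 0.00, and 16 were above 0. None was 1.5-fold higher or lower, where 0.434% and 0.282% of all 8523 measured genes were. In wild type, 22 of the 32 were above 0 with indole, with a median log2 ratio of 0.24 against -0.04 for all 8679 measured genes. There 3 were at least 1.5-fold higher (9.38%), GABARAPL1, CTSB and CTSL1, against 7.09% of all genes. A further 2 were at least 1.5-fold lower (6.25%), ATG3 and ATG16L1, against 9.72% of all genes. With TMM both shares are near those of all genes and none of the 32 reached 2-fold, where 1.36% of all genes were higher and 1.54% lower. Just inside the threshold stood CTSL1, with a log2 ratio of 0.62, and just outside stood GRN, with 0.58. The number of genes past 1.5-fold depends on the scaling. With library totals in place of TMM, 12 of the 32 were higher and 0 lower, against 1235 and 425 of all 8742 genes. Library totals moved the median of all genes to 0.14 and that of these genes to 0.41. The distance between both medians was thus 0.27 with library totals and 0.28 with TMM.

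**Figure D1:**
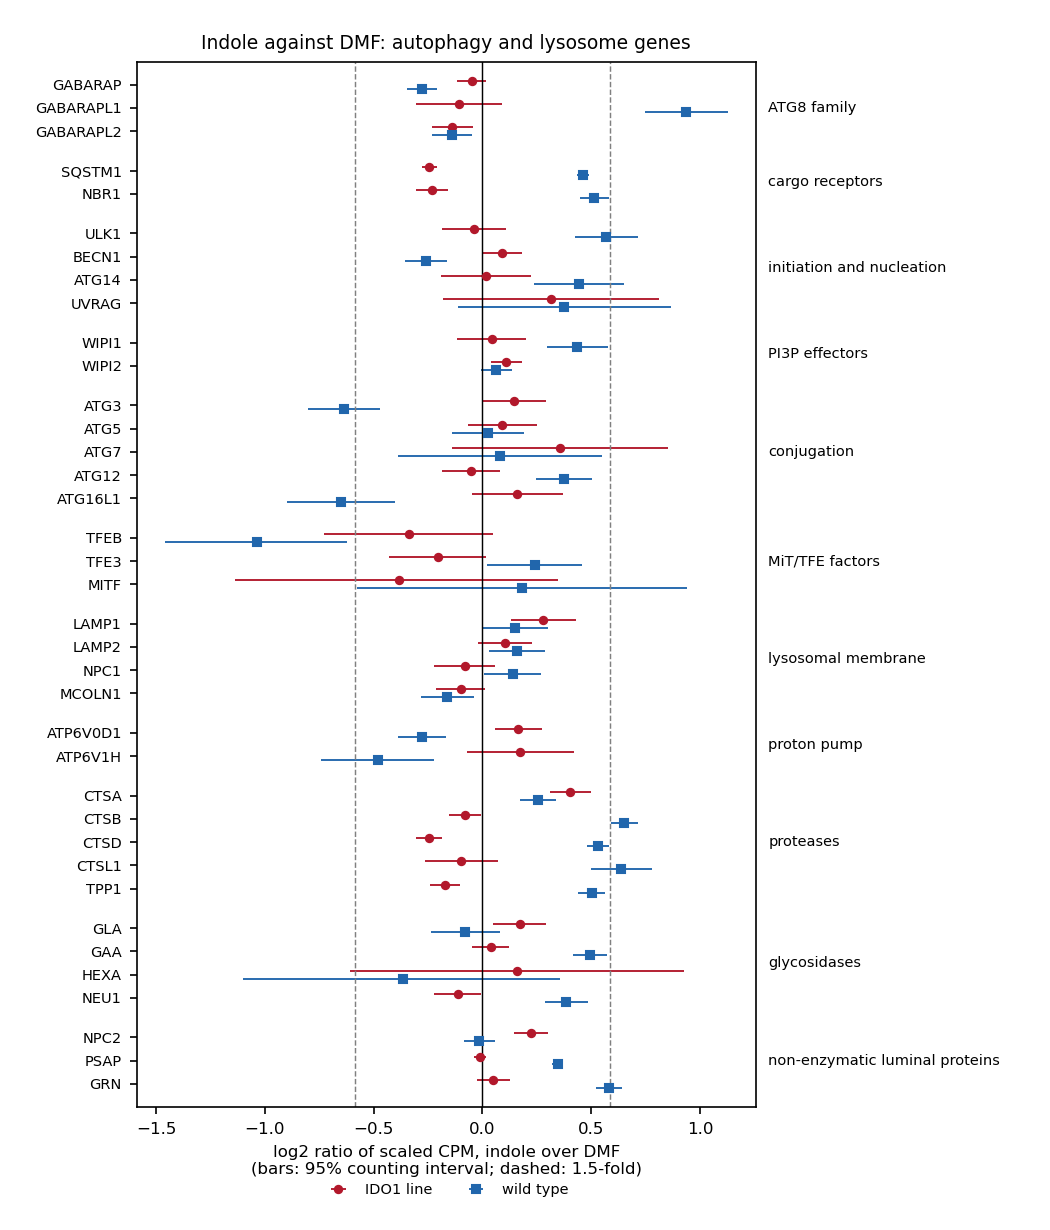
Log2 ratio of scaled CPM, indole over DMF, for 37 genes grouped by role (ATG13 is left out for its counts at or near 0), in the IDO1 line (circles) and in wild type (squares). Horizontal bars are 95% intervals of counting error and dashed lines mark 1.5-fold. The proteases, cargo receptors and GRN lie to the right in wild type and close to 0 or to the left in the IDO1 line, other than CTSA, which lies to the right in both.

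Among the ATG8 proteins, which are fixed to the growing membrane and bind the cargo receptors, 1 of the 3 members stood apart. GABARAPL1 had 19.9 CPM with indole and 21.4 CPM with DMF in the IDO1 line, against 31.9 CPM with indole and 16.7 CPM with DMF in wild type. It was highest in wild type with indole, 1.91-fold above DMF (1.68 to 2.19), and it was lowest in wild type with DMF. In the IDO1 line its indole library was 1.08-fold lower (0.940 to 1.24). GABARAP had 174 CPM with indole and 179.8 CPM with DMF in the IDO1 line, against 154 CPM with indole and 187 CPM with DMF in wild type, where it was thus 1.21-fold lower (1.15 to 1.27). GABARAPL2 had 85.8 CPM with indole and 94.4 CPM with DMF in the IDO1 line, against 89.5 CPM with indole and 98.6 CPM with DMF in wild type. It was 1.10-fold lower with indole in both lines, although in wild type its log2 ratio was 0.03 with library totals. GABARAPL1 has a near-identical relative, GABARAPL3, whose transcripts could share its reads, and its value is uncertain for that reason.

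The cargo receptors SQSTM1 and NBR1, which tie ubiquitin-marked cargo to ATG8 proteins, lay on opposite sides of their DMF level in the 2 lines. SQSTM1, also called p62, had 659 CPM with indole and 781 CPM with DMF in the IDO1 line, against 1155 CPM with indole and 838 CPM with DMF in wild type. Indole went with a 1.18-fold lower level in the IDO1 line (1.16 to 1.21) and with a 1.38-fold higher level in wild type (1.35 to 1.41). NBR1 had 132 CPM with indole and 155 CPM with DMF in the IDO1 line, against 217 CPM with indole and 152 CPM with DMF in wild type. Against DMF, NBR1 with indole was 1.17-fold lower in the IDO1 line (1.12 to 1.24) and 1.43-fold higher in wild type (1.36 to 1.5). For both receptors the library of wild type with indole was the highest of the 4 and that of the IDO1 line with indole the lowest.

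Of the 5 genes of initiation and nucleation, 3 were measured. ULK1, the kinase that starts autophagy, had 36.7 CPM with indole and 37.7 CPM with DMF in the IDO1 line, against 47.0 CPM with indole and 31.6 CPM with DMF in wild type. Its 1.48-fold higher level with indole in wild type (1.34 to 1.64) was just short of the threshold. ATG14, a subunit of the lipid kinase complex, was 1.36-fold higher with indole in wild type (1.18 to 1.57), while BECN1, the core of that complex, was 1.2-fold lower (1.12 to 1.28). In the IDO1 line all 3 lay between -0.04 and 0.09 on the log2 scale. UVRAG, another subunit, had 67 to 79 reads in each library. ATG13, a partner of ULK1, had 3 reads or fewer in every library, so no fold is given. WIPI1 and WIPI2 bind the lipid made by the BECN1 complex. WIPI1 was 1.35-fold higher with indole in wild type (1.23 to 1.49) and 1.03-fold higher in the IDO1 line (0.924 to 1.15), while WIPI2 was within 1.08-fold of DMF in both lines.

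The conjugation enzymes held both genes past 1.5-fold in the downward direction with indole in wild type. ATG3, the enzyme that passes ATG8 proteins to their lipid, had 39.2 CPM with indole and 35.5 CPM with DMF in the IDO1 line, against 24.8 CPM with indole and 38.5 CPM with DMF in wild type. ATG16L1, the scaffold that places this reaction on the membrane, had 19.0 CPM with indole and 17.0 CPM with DMF in the IDO1 line, against 10.95 CPM with indole and 17.2 CPM with DMF in wild type. For each of the 2 genes the library of wild type with indole was the lowest and the other 3 lay close together. ATG3 was 1.55-fold lower with indole in wild type (1.39 to 1.74) and 1.11-fold higher in the IDO1 line (1.00 to 1.22). ATG16L1 was 1.57-fold lower in wild type (1.32 to 1.86) and 1.12-fold higher in the IDO1 line (0.966 to 1.29). ATG12, the ubiquitin-like tag joined to ATG5, went the other way in wild type, at 1.30-fold higher with indole (1.19 to 1.42), and ATG5 was at 29.8 to 31.8 CPM in all 4 libraries. ATG7, the enzyme that activates both tags, had 68 to 81 reads in each library, and its intervals included 1 in all 4 comparisons.

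Of the MiT/TFE factors, which switch on lysosomal genes, only TFE3 reached 10 CPM. TFEB had 95 reads with indole and 143 reads with DMF in the IDO1 line, against 71 reads with indole and 160 reads with DMF in wild type. In CPM it was 2.05-fold lower with indole in wild type (1.54 to 2.75) and 1.26-fold lower in the IDO1 line (0.967 to 1.65). TFEB was under 10 CPM in all libraries and is outside the counts above, and both indole libraries were below both DMF libraries. TFE3 had 15.2 CPM with indole and 17.5 CPM with DMF in the IDO1 line, against 18.6 CPM with indole and 15.7 CPM with DMF in wild type, where it was 1.18-fold higher (1.01 to 1.38). MITF had 27 reads with indole and 42 reads with DMF in the IDO1 line, against 32 reads with indole and 31 reads with DMF in wild type, and all its intervals included 1.

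**Figure D2:**
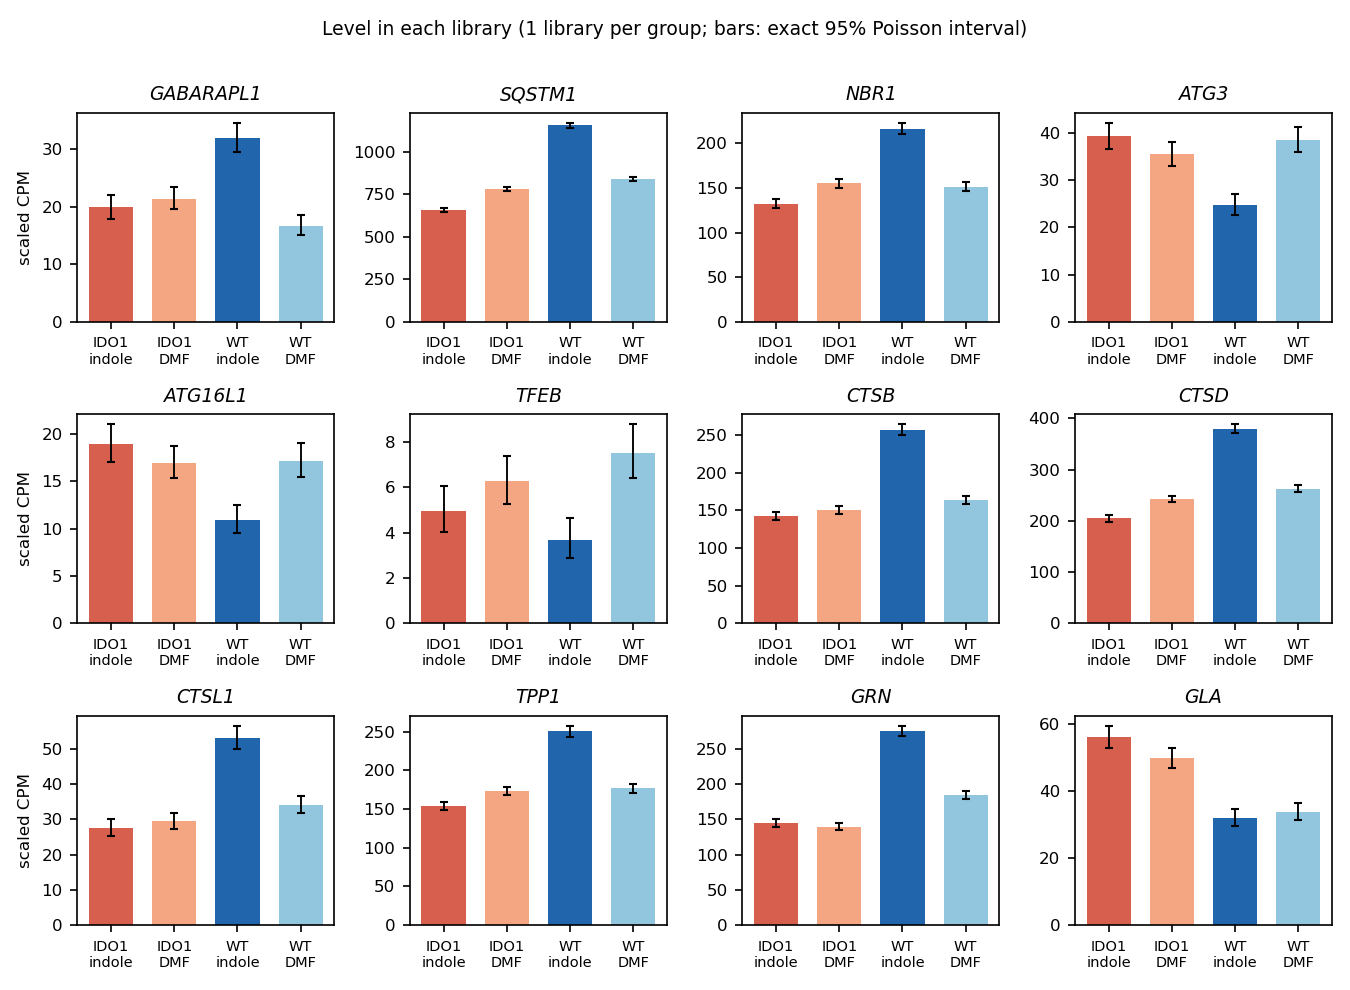
Scaled CPM of 12 of the genes in each of the 4 libraries, on axes that start at 0, with exact 95% Poisson intervals of the count. Wild type with indole is the highest library for GABARAPL1, SQSTM1, NBR1, CTSB, CTSD, CTSL1, TPP1 and GRN and the lowest for ATG3, ATG16L1, TFEB and GLA.

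The 4 lysosomal membrane proteins among the members differed little with indole. LAMP1, a heavily glycosylated protein that lines the lysosomal membrane, had 38.9 CPM with indole and 32.0 CPM with DMF in the IDO1 line, against 38.5 CPM with indole and 34.7 CPM with DMF in wild type. LAMP2, its relative, had 51.4 CPM with indole and 47.8 CPM with DMF in the IDO1 line, against 51.7 CPM with indole and 46.3 CPM with DMF in wild type. Both genes were higher with indole in both lines, LAMP1 by 1.21-fold in the IDO1 line (1.09 to 1.35) and 1.11-fold in wild type (1.00 to 1.23), and LAMP2 by 1.08-fold (0.985 to 1.17) and 1.12-fold (1.02 to 1.22). NPC1, which exports cholesterol from the lysosome, and MCOLN1, its calcium channel, were within 1.12-fold of DMF in both lines. ATP6V0D1 and ATP6V1H are subunits of the V-ATPase. With indole, ATP6V0D1 was 1.12-fold higher and ATP6V1H 1.13-fold higher in the IDO1 line, whereas in wild type ATP6V0D1 was 1.21-fold lower (1.12 to 1.31) and ATP6V1H was 1.4-fold lower (1.17 to 1.67). For both subunits wild type with indole was the lowest of the 4 libraries.

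Among the members' roles with 3 or more measured genes, the lysosomal proteases had the highest median in wild type: all 5 were above 0, with a median log2 ratio of 0.53. CTSB, a cysteine protease, had 142 CPM with indole and 150.2 CPM with DMF in the IDO1 line, against 257 CPM with indole and 163 CPM with DMF in wild type. CTSL1, the cysteine protease now named CTSL, had 27.6 CPM with indole and 29.5 CPM with DMF in the IDO1 line, against 53.2 CPM with indole and 34.2 CPM with DMF in wild type. In wild type CTSB was 1.57-fold higher with indole (1.5 to 1.64) and CTSL1 was 1.56-fold higher (1.41 to 1.71), and in the IDO1 line CTSB was 1.06-fold lower and CTSL1 1.07-fold lower. CTSD, the main aspartic protease, had 205 CPM with indole and 243 CPM with DMF in the IDO1 line, against 379.7 CPM with indole and 262 CPM with DMF in wild type. TPP1, which removes tripeptides from protein ends, had 154 CPM with indole and 173 CPM with DMF in the IDO1 line, against 251 CPM with indole and 177 CPM with DMF in wild type. CTSD was 1.45-fold higher with indole in wild type (1.4 to 1.5) and TPP1 was 1.42-fold higher (1.36 to 1.48), and in the IDO1 line CTSD was 1.18-fold lower (1.14 to 1.23) and TPP1 1.13-fold lower (1.07 to 1.18). For these 4 proteases, wild type with indole was above the other 3 libraries and the IDO1 line with indole was below them. CTSA, a carboxypeptidase that also shields NEU1, was the exception, 1.32-fold higher with indole in the IDO1 line (1.24 to 1.41) and 1.19-fold higher in wild type (1.13 to 1.26).

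Among the glycosidases, GAA, which breaks down glycogen, was 1.41-fold higher with indole in wild type (1.33 to 1.49) and 1.03-fold higher in the IDO1 line (0.969 to 1.09). NEU1, a sialidase, was 1.31-fold higher in wild type (1.22 to 1.4) and 1.08-fold lower in the IDO1 line (1.00 to 1.17). GLA, an alpha-galactosidase, differed more by line than by treatment: it had 56.0 CPM with indole and 49.7 CPM with DMF in the IDO1 line, against 32.0 CPM with indole and 33.8 CPM with DMF in wild type. HEXA, a hexosaminidase subunit, had 29 to 41 reads in each library. Of the luminal proteins without enzyme activity, GRN, the precursor of granulins, had 145 CPM with indole and 139.8 CPM with DMF in the IDO1 line, against 275 CPM with indole and 184 CPM with DMF in wild type. PSAP, the precursor of the saposins that help lipid breakdown, had 929.6 CPM with indole and 937 CPM with DMF in the IDO1 line, against 1391 CPM with indole and 1094 CPM with DMF in wild type. Both libraries of wild type were above both libraries of the IDO1 line for GRN and for PSAP. NPC2, which carries cholesterol to NPC1, was at 154 CPM with indole and 156 CPM with DMF in wild type and 1.17-fold higher with indole in the IDO1 line (1.11 to 1.23).

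Set against each other, the indole responses of the lines differed by at least 1.5-fold for 11 of the 32 genes. The log2 ratio in the IDO1 line minus that in wild type had a median of -0.29 for these genes and 0.03 for all 8845 genes. With a minimum of 1 CPM, at which 37 of the genes were measured, that median was -0.06 for these genes. It was at or past 1.5-fold and lower in 8 genes (25%, against 9.84% of all genes) and higher in 3 (9.38%, against 12.4% of all genes). GABARAPL1 had the lowest difference, -0.999, and ATG3 the highest, 0.76. With 1 library per group this interaction could not be tested, and it rests, as the response of wild type and the comparison of lines in indole do, on the 1 library of wild type cells given indole. The library of wild type with indole was above the other 3 in 20 of the 32 genes (62.5%), against 35.2% of all genes, and below them in 8 (25%), against 42.7% of all genes. Among the other 3 libraries the highest level was a median of 1.15 times the lowest for these genes, and 1.17 times for all genes.

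**Figure D3:**
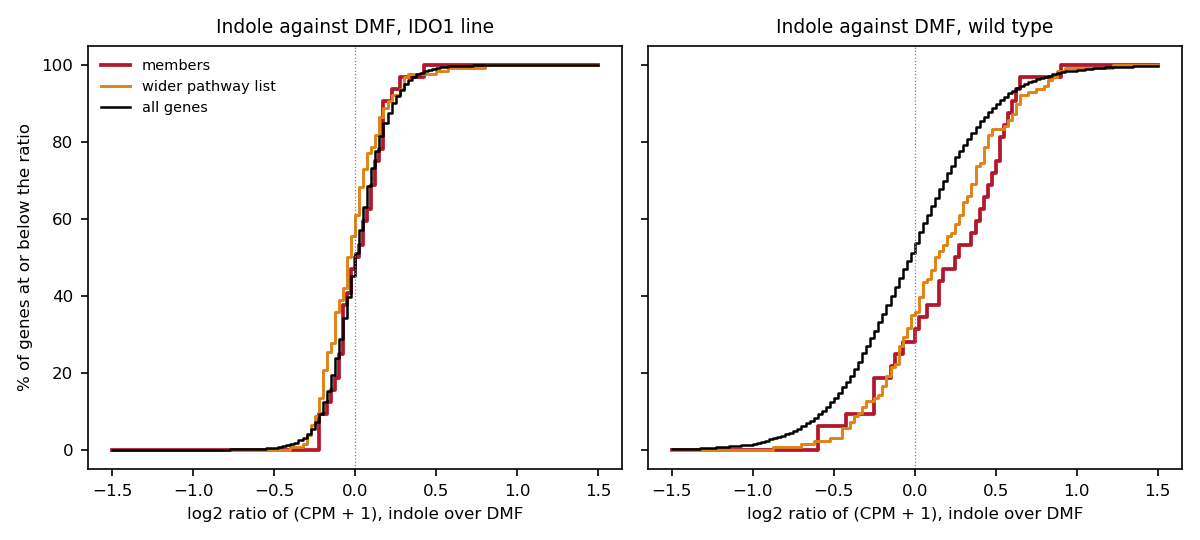
Cumulative share of genes (percent) at or below each log2 ratio of CPM plus 1, indole over DMF, in the IDO1 line (left) and in wild type (right), for the 32 measured members, the wider list of pathway genes, and all measured genes. In wild type the curve of the members lies to the right of that of all genes, with medians of 0.24 and -0.04, and in the IDO1 line the curves lie close together around 0.

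The comparison of the lines was made in indole and in DMF. In indole, 8 of the 32 genes (25%) were at least 1.5-fold lower in the IDO1 line, against 9.75% of all 8765 genes. These were GABARAPL1, SQSTM1, NBR1, CTSB, CTSD, CTSL1, TPP1 and GRN. A further 3 (9.38%) were at least 1.5-fold higher, ATG3, ATG16L1 and GLA, against 11.6% of all genes. The median log2 ratio was -0.28 for these genes and 0.03 for all genes. CTSL1 was 1.93-fold lower (1.74 to 2.15), GRN 1.90-fold (1.82 to 1.99), CTSD 1.85-fold (1.78 to 1.93), CTSB 1.81-fold (1.72 to 1.89) and SQSTM1 1.75-fold (1.71 to 1.79). NBR1 was 1.64-fold lower (1.56 to 1.72), TPP1 1.63-fold (1.56 to 1.71) and GABARAPL1 1.61-fold (1.41 to 1.83). PSAP was just outside the threshold, with a log2 ratio of -0.58. In the other direction GLA was 1.75-fold higher (1.58 to 1.93), ATG16L1 1.73-fold (1.46 to 2.06) and ATG3 1.59-fold (1.41 to 1.78). With TMM none of the 32 reached 2-fold in either direction, where 2.28% of all genes were higher and 2.22% lower.

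In DMF, none of the 32 genes was 1.5-fold apart, where 0.894% of all 8500 genes were higher in the IDO1 line and 1.26% lower. The median log2 ratio was -0.08, against -0.01 for all genes, and 9 genes were above 0. With library totals the median was 0.02, against 0.09 for all genes, 17 were above 0, and GLA was past 1.5-fold. GLA was 1.47-fold higher in the IDO1 line (1.34 to 1.62) with TMM. At the low end were CTSA, 1.36-fold lower (1.28 to 1.45), NPC2, 1.32-fold lower (1.25 to 1.38), and GRN, 1.32-fold lower (1.26 to 1.38). GABARAPL1 was 1.28-fold higher (1.12 to 1.47), opposite to its direction in indole. When wild type with indole was replaced by wild type with DMF as what the IDO1 line with indole was set against, a check added after the data were seen, 0 genes were at least 1.5-fold lower and 1, GLA, was higher, where 1.22% of all genes were lower and 1.04% higher. Markers of embryonic kidney and neurons also differed between the lines: 7 of 20 such genes were at 10 CPM or more in the IDO1 line with indole and 6 in the IDO1 line with DMF, against 1 in each library of wild type. Their summed level was 299 CPM and 339 CPM in the IDO1 line with indole and with DMF, against 171 CPM and 227 CPM in wild type with indole and with DMF. TUBB3 made up most of the sums in wild type, and without it the sums were 141 CPM and 136 CPM in the IDO1 line with indole and with DMF, against 14.8 CPM and 14.4 CPM in wild type with indole and with DMF. VIM had the most reads after TUBB3 in the IDO1 line, 1120 with indole and 1226 with DMF, against 55 and 88 in wild type. UCHL1, CADM1, HOXD13, SALL1 and LIN28B had 0 reads in both wild type libraries. Other markers of this list did not separate the lines. LHX1 had 33 and 45 reads in the IDO1 line with indole and with DMF, against 31 and 28 in wild type. MAB21L1 had 13 and 24 against 33 and 15. PAX8 and NEFH had 3 reads or fewer in every library, and SOX11 had 0 reads in all 4. The part of these markers in the results was not tested.

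**Figure D4:**
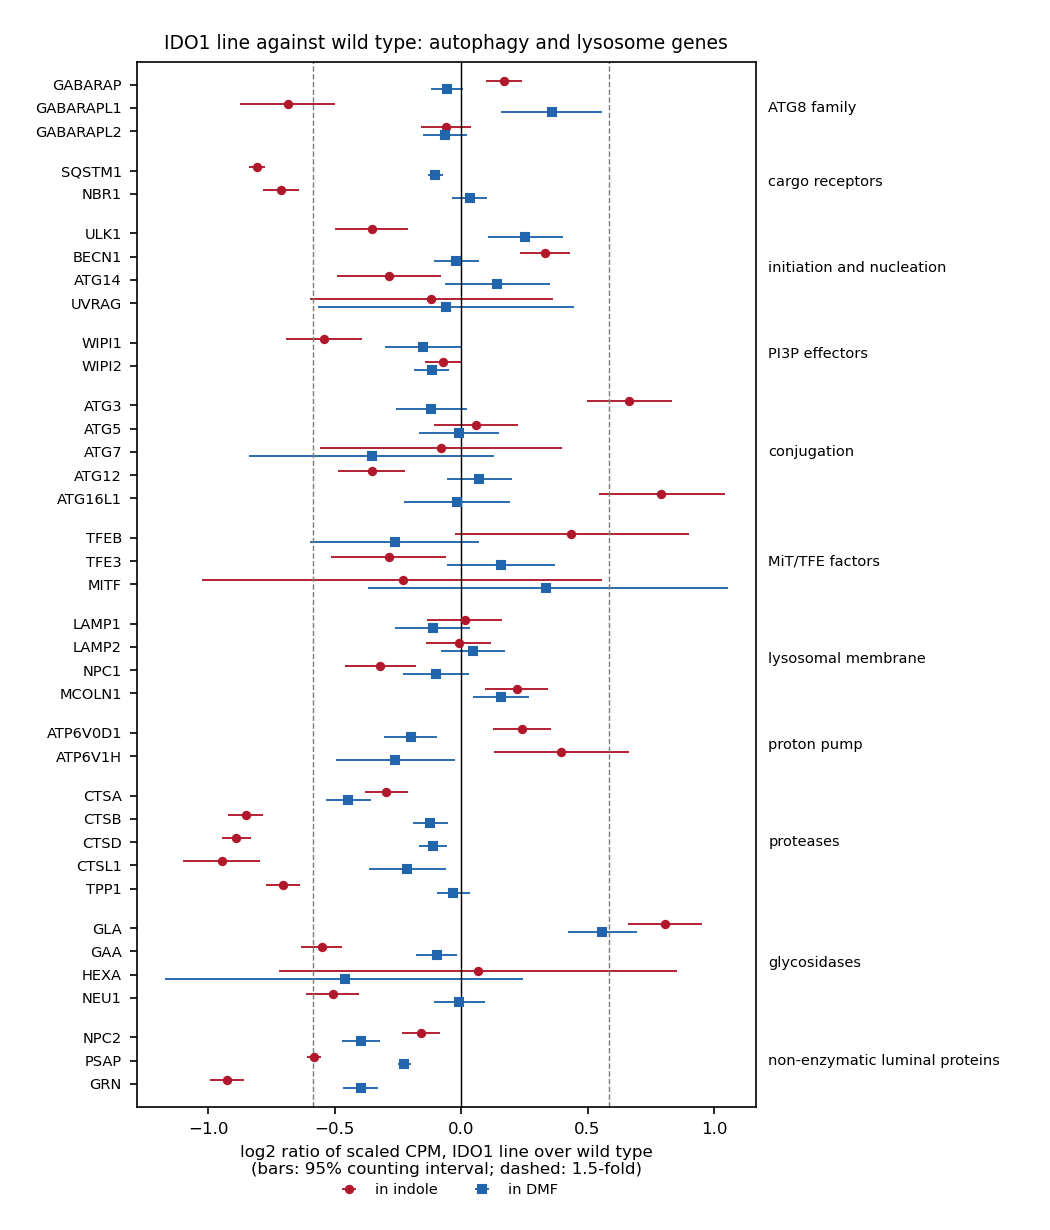
Log2 ratio of scaled CPM, IDO1 line over wild type, for 37 genes grouped by role, in indole (circles) and in DMF (squares), with 95% intervals of counting error and dashed lines at 1.5-fold. In indole 8 genes lie left of the lower dashed line and 3 right of the upper one. In DMF all measured genes lie between the dashed lines.

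An additive fit over all 4 libraries gave the only tests that the design allows, with line and treatment as terms and 1 residual degree of freedom that also holds the difference between the responses. For the line, 0 of the 37 tested genes rose or fell by edgeR's quasi-likelihood test with Benjamini-Hochberg adjustment at 0.05 over 13122 genes, of which 2.03% rose and 0.419% fell. At an unadjusted p under 0.05 there were 3 of the 37 (8.11%), against 9.99% of all genes. GLA had a log2 fold change of 0.67 with an SE of 0.220 and an adjusted p of 0.142 in that edgeR test, and was higher in both libraries of the IDO1 line than in both of wild type. GRN had -0.67 with an SE of 0.237 and an adjusted p of 0.205, and CTSL1 had -0.59 with an SE of 0.234 and an adjusted p of 0.313, both by edgeR, and both genes were lower in both libraries of the IDO1 line. For indole, 0 of the 37 genes rose or fell by the same edgeR test, as did 0.0% of all genes, with 3.41% of all genes at an unadjusted p under 0.05. DESeq2 also called 0 of 16748 genes for indole, with 129 at an unadjusted p under 0.05, and 0 of the members for the line. Among all genes, edgeR called 5 to 10 for indole under 3 other settings and 0 with relative log expression scaling, none of them members. Of the members only TFEB was under 0.05 before adjustment for indole in edgeR, with a log2 fold change of -0.67, an SE of 0.317, an unadjusted p of 0.0429 and an adjusted p of 1.00, and it was lower with indole in both lines. The labels do not say whether separate cultures were used, so these p-values reflect the spread of the 4 libraries alone, and that spread may be technical.

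A wider list of 166 further genes of the pathway was chosen by function, with earlier results on the members known. Of its 126 measured genes, 81 were above 0 with indole in wild type and the median log2 ratio was 0.12, and 18 (14.3%, against 7.09% of all genes) were at least 1.5-fold higher and 3 (2.38%, against 9.72%) at least 1.5-fold lower. In the IDO1 line the median was -0.05 over 126 genes, 49 were above 0, and 1 was 1.5-fold higher (0.794%, against 0.434% of all genes). It was ATG4C, an ATG8 protease that was named after its values were seen. ATG4C had 10.1 CPM with indole and 5.43 CPM with DMF in the IDO1 line, against 7.18 CPM with indole and 7.10 CPM with DMF in wild type. It thus counted as measured only through the library in which it was high. By role, 14 of 16 measured lipases, sulfatases and related proteins were above 0 in wild type with a median of 0.39, and 5 of them were at least 1.5-fold higher. Of 9 measured glycosidases, 4 were at least 1.5-fold higher, also with a median of 0.39. Of the FOXO and other transcription factors, 4 were measured, FOXO1, FOXO3, FOXO4 and ZKSCAN3, with a median of 0.71. The 3 FOXO factors were at least 1.5-fold higher, and the MiT/TFE relative TFEC was not measured. Of 5 measured proteases outside the members, 3 were above 0, none was 1.5-fold apart, and the median was 0.20. Of 6 other cargo receptors measured, 3 were above 0 and 3 below, with a median of -0.02. Of 15 other lysosomal membrane proteins measured, 10 were above 0 and 5 below, with a median of 0.25, and 2 were at least 1.5-fold higher. Further, 7 of 13 measured V-ATPase subunits were above 0, with a median of 0.03, and of 24 measured genes of mTORC1 on the lysosome 11 were above 0, with a median of -0.07.

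Among genes of the wider list at 10 CPM or more, the highest fold with indole in wild type was that of IDUA, which breaks down glycosaminoglycans. It had 8.78 CPM with indole and 10.3 CPM with DMF in the IDO1 line, against 28.1 CPM with indole and 11.5 CPM with DMF in wild type. It was 2.45-fold higher with indole in wild type (2.10 to 2.86), and overlaps SLC26A1 on the other strand. The next 7 were between 1.76-fold and 1.92-fold higher in wild type. They were SGSH, at 30.6 CPM with indole and 15.9 CPM with DMF, GM2A, SESN2, FOXO3, TPCN1, WDFY3 and MANBA. SGSH removes sulfate from heparan sulfate, GM2A presents a ganglioside to HEXA, SESN2 restrains mTORC1 when amino acids are short, and TPCN1 is a lysosomal cation channel. Exons of SGSH overlap CARD14 on the other strand. FOXO3, a transcription factor known to act on autophagy genes, had 58.7 CPM with indole and 61.2 CPM with DMF in the IDO1 line, against 111 CPM with indole and 61.6 CPM with DMF in wild type. In the IDO1 line the 8 genes lay between 0.852 and 1.11 times their DMF level.

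At the other end, BNIP3, a receptor for mitochondria, had 41.0 CPM with indole and 45.8 CPM with DMF in the IDO1 line, against 29.6 CPM with indole and 55.1 CPM with DMF in wild type, where it was 1.86-fold lower (1.68 to 2.06). RRAGA, a GTPase that brings mTORC1 to the lysosome, was 1.64-fold lower with indole in wild type (1.49 to 1.81), and LAMTOR4, part of its anchor, 1.56-fold lower (1.42 to 1.71). ATP6V0E2, LAMTOR1, NPRL3, MLST8 and KIAA0226 followed, at 1.33-fold to 1.47-fold lower. Of these, NPRL3 and MLST8 overlap a coding gene on the other strand. Between the lines, 19 of 129 measured genes of the wider list were at least 1.5-fold lower in the IDO1 line in indole (14.7%, against 9.75% of all genes) and 1 higher (0.775%, against 11.6%), RRAGA. In DMF, 1 of 121 was lower (0.826%, against 1.26% of all genes), the protease CTSH, named after its values were seen, at 10.7 CPM with indole and 8.55 CPM with DMF in the IDO1 line, against 18.3 CPM with indole and 14.1 CPM with DMF in wild type. In that comparison CTSH counted as measured only through wild type, the library in which it was high. CTSF, another lysosomal protease, was the only gene of the wider list past the threshold of the line fit. It had 28 reads with indole and 44 reads with DMF in the IDO1 line, against 0 with indole and 2 with DMF in wild type. Its adjusted p was 0.000440 by edgeR's quasi-likelihood test and 0.107 by DESeq2.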

How the data were processed

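The deposited files hold raw counts of reads per amplicon target, which the authors did not normalize, as the headers and whole-number values show. RNA was purified on columns and libraries were built with an AmpliSeq transcriptome kit for Ion sequencers, per the labels' protocols. The submitters' processing notes name hg19 as the build, and the aligner and counting tool are not given in the sources used here. Each group had 1 count column, so the comparisons between a pair of groups have no test.

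Counts of all 4 libraries were scaled by TMM in edgeR 4.0.16 (R 4.3.3). Log2 ratios used a pseudocount of 1 CPM, and a minimum of 10 CPM in 1 or more of the libraries compared. Intervals are 95% Clopper-Pearson intervals of counting error only, since PCR copies carry no molecular identifiers, and 3 reads were taken as the floor for a count of 0. The additive fits used glmQLFit and glmQLFTest of edgeR on genes kept by filterByExpr, with Benjamini-Hochberg adjustment at 0.05 over all tested genes, and were tested on simulated data. The SE was back-calculated from the fold change and the F statistic. DESeq2 1.42.0 was an alternative.

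The members and lists were chosen with earlier results of these data known. Given in full are genes at least 1.5-fold apart in a pairwise comparison, genes past the threshold of a fit, the ATG8 family, SQSTM1, the MiT/TFE factors, LAMP1 and LAMP2, and of the wider list the 8 furthest apart each way with indole in wild type. The wider list was fixed with 167 genes, of which 166 had a target under their symbol, and MAP1LC3B was not analysed here. Alternatives were library totals, totals without the 10 most abundant genes, DESeq2's size factors, a pseudocount of 0.25 or 5, a minimum of 1 or 50 CPM, and removal of trends with abundance, GC content and length.

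Fibroblast markers summed to 74.7 and 77.4 CPM in the IDO1 line (indole, DMF) and to 98.6 and 86.5 CPM in wild type (indole, DMF), most of it COL1A1. Endothelial markers summed to at most 4.69 CPM and leukocyte markers to at most 10.3 CPM. Intestinal epithelial markers summed to 3901, 3568, 4562 and 4890 CPM in the same order of libraries. Coordinates of promoters are from RefSeq on GRCh38.p14 and were not used with the counts.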

Additional observations from a re-analysis of the deposited data

Results flagged for a closer look

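Lying on opposite sides of their DMF level in the 2 lines, with counting intervals on either side of 1 and at least 1.5-fold between the responses, were 6 of the genes. How many of all genes met this rule is not given here, so the count cannot be set against a background. The value given is the log2 ratio of indole to DMF in the IDO1 line minus that in wild type. It was -0.71 for SQSTM1, -0.74 for NBR1, -0.73 for CTSB, -0.77 for CTSD and -0.67 for TPP1, all lower with indole in the IDO1 line and higher with indole in wild type. It was 0.76 for ATG3, higher with indole in the IDO1 line and lower with indole in wild type. ATG3 and CTSB met the rule narrowly. In the IDO1 line the counting interval of indole over DMF began at 1.0008 for ATG3 and ended at 0.996 for CTSB. The differences were not tested, since each group is 1 library, and all 6 rest on the library of wild type with indole.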

How the results depend on the processing

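The number of genes past 1.5-fold depended on the scaling for indole in wild type. With library totals, and with totals without the 10 most abundant genes, 12 genes were higher and 0 lower with indole in wild type, where TMM gave 3 and 2, and 1 was higher in the IDO1 line in DMF, where TMM gave 0. Among all genes, library totals turned 615 higher and 844 lower in wild type into 1235 and 425, and 1017 higher and 855 lower between the lines in indole into 780 and 1106. They also turned 76 higher and 107 lower between the lines in DMF into 139 and 63, and 1098 and 870 for the difference of the responses into 624 and 1473. With trends with abundance removed, 10 of the 32 genes were higher and 2 lower with indole in wild type, against 671 and 695 of all 8679 genes. With trends of GC content and length removed as well, 10 of the 32 were higher and 1 lower, against 551 and 570 of all 8589 genes. A pseudocount of 5 left 0 lower in wild type, as did a minimum of 50 CPM, which left 1 higher between the lines in indole and 0 for the difference, where 3 were higher in each. With wild type with DMF in place of wild type with indole, an alternative chosen after seeing the data, 1 gene was higher and 0 lower, where 3 and 8 were. No member past 1.5-fold with TMM changed sign in any alternative run. Smaller ratios could, as that of GABARAPL2 did for indole in wild type with library totals. At 2-fold, where TMM gave 0, 1 gene was higher with indole in wild type with library totals or with totals without the top 10 genes, and 2 were lower between the lines in indole with the latter and with either set of trends removed. Medians moved in 10 cases: for indole in wild type to between 0.36 and 0.41, between the lines in indole to -0.16, for the difference to between -0.46 and -0.06, in the IDO1 line to -0.01, and in DMF to 0.02. For indole in wild type the median was 0.16 with a minimum of 1 CPM. Over all genes, the edgeR fit called 0 for indole, 6 that rose with library totals, 5 with a minimum of 10 CPM in 2 libraries, and 9 that rose and 1 that fell with no filter. For the line it called 267 that rose and 55 that fell, against 26 and 48 with that minimum, 305 and 113 with no filter and 74 and 12 with DESeq2. Beside the 15 counts of members that moved at 1.5-fold, 91 others stayed within 1.5 times their value. The cause was not tested.

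No paired analysis was possible because the labels give no replicate numbers and each group has 1 library. Leaving out a library removes the residual degree of freedom of the additive fit, so it gives no test. Depth limits the 6 genes under 10 CPM, whose intervals included 1 in every pairwise comparison other than that of TFEB with indole in wild type.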

Other observations

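The promoters of the wider list held E-boxes as well. CACGTG was in 33 of 184 windows of 127 genes (17.9%), TCACGTGA in 14 (7.61%) and GTCACGTGAC in 7 (3.80%), against 7.26%, 0.980% and 0.353% of all windows, and 9.76%, 1.84% and 0.768% of those of genes at 10 CPM or more. The genes with the palindrome were ATP6V1G1, GALNS, PLD3, PLBD2, IGF2R, GNPTG and RRAGB.

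FNIP2, a partner of folliculin in mTORC1 control, was 1 of 5 of 130 genes of the wider list (3.85%, against 12.4% of all genes) whose indole response in the IDO1 line exceeded that of wild type by 1.5-fold or more, beside ATG4C, BNIP3, RRAGA and LAMTOR4, while 26 (20%, against 9.84%) lay 1.5-fold or more the other way. FNIP2 was named after its values were seen, and had 9.41 CPM with indole and 11.3 CPM with DMF in the IDO1 line, against 3.93 CPM with indole and 9.45 CPM with DMF in wild type. FNIP2 reached 10 CPM only in the IDO1 line with DMF, the library in which it was highest. ATG4C reached 10 CPM only in the IDO1 line with indole, the library in which it was high.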
